A study of Mus musculus with 20 samples.

Results

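The hepatic serpin A genes described here are *Serpina1a*, *Serpina1b*, *Serpina1c*, *Serpina1d*, *Serpina1e*, *Serpina3k*, *Serpina3m*, *Serpina3n*, *Serpina11* and *Serpina12*. They were taken by symbol from the deposited gene counts, which gave 10 genes of 54532 in all, and the choice was made with earlier results of these data known. All 10 passed the filter on low counts that left 12289 genes for testing. Liver RNA was sequenced from 20 male C57BL/6J mice, 1 library per mouse, with 5 mice in each of 4 groups. All mice had been made obese by 12 weeks of high-fat diet (HFD) and then had either Roux-en-Y gastric bypass (RYGB), which routes food past most of the stomach and the upper small intestine, or a sham operation. For the 8 weeks after surgery they received chow or HFD, which gave Sham Chow and Sham HFD after the sham operation and RYGB Chow and RYGB HFD after bypass. The chow groups are therefore mice taken off HFD, and never-obese mice were not among the samples. Each contrast below gives the second group over the first. Sham Chow vs. Sham HFD thus sets continued HFD against chow after sham surgery, and Sham HFD vs. RYGB HFD sets bypass against sham on HFD. The study reported that Sham HFD mice were heavier than those of every other group. In contrasts with Sham HFD, and in the interaction, diet or surgery therefore cannot be told apart from body weight.

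Serpins are protease inhibitors that work by suicide: the protease cleaves an exposed stretch of the serpin, the reactive-centre loop, and is then trapped in a covalent complex. Hepatocytes secrete several clade A serpins into plasma in large amounts. Alpha-1-antitrypsin, the best known, restrains neutrophil elastase in the lung. Humans carry a single *SERPINA1* gene and a single *SERPINA3* gene for alpha-1-antichymotrypsin, whereas in the mouse both have been duplicated into families of close copies that differ most in the reactive-centre loop. The *Serpina1* copies encode alpha-1-antitrypsins. *Serpina3k* encodes contrapsin, a kallikrein-binding serpin, and *Serpina3m* a close relative of it. *Serpina3n* encodes an antichymotrypsin-type inhibitor induced in the acute phase. *Serpina11* is a little-studied liver serpin, and *Serpina12* encodes vaspin, an adipokine that inhibits kallikrein 7.

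All 10 genes lie in the serpin cluster of chromosome 12, within 686.2 kb (GRCm38, the mm10 build of the deposited counts). The annotation used here lists 28 serpin A genes there, 5 of them pseudogenes, of which 15 passed the filter. On the minus strand lie *Serpina1b* (ENSMUSG00000071178, chr12:103728156-103830373), *Serpina1d* (ENSMUSG00000071177, chr12:103763594-103773592), *Serpina1a* (ENSMUSG00000066366, chr12:103853589-103863562) and *Serpina1c* (ENSMUSG00000079015, chr12:103894926-103904887). They are followed on the same strand by *Serpina1e* (ENSMUSG00000072849, chr12:103946931-103958975), *Serpina11* (ENSMUSG00000063232, chr12:103980243-103989957) and *Serpina12* (ENSMUSG00000041567, chr12:104028769-104044443). On the plus strand lie *Serpina3k* (ENSMUSG00000058207, chr12:104338486-104346144), *Serpina3m* (ENSMUSG00000079012, chr12:104338486-104394257) and *Serpina3n* (ENSMUSG00000021091, chr12:104406729-104414329). The model of *Serpina1b* spans *Serpina1d* within an intron, and *Serpina3m* shares 60 exonic bases with *Serpina3k*.

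The 5 *Serpina1* coding sequences are 1239 bases each and differ from one another at 86 positions in all. Pairs of them were between 96.3% and 98.5% identical, with *Serpina1a* and *Serpina1c* the closest. At 24 positions *Serpina1e* alone carried its base, against 19 for *Serpina1d*, 17 for *Serpina1b*, 7 for *Serpina1c* and 6 for *Serpina1a*. The 60 bases that differ most, coding bases 1101 to 1160 in exon 5 of 5, belong to the stretch that encodes the reactive-centre loop and are shown because they are what tells the copies apart. Sequences are given 5′ to 3′ on the coding strand of GRCm38, from GENCODE M21 transcripts, with the 18 variable positions in capitals.
Serpina1a: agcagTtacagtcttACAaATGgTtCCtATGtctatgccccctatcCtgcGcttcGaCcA
Serpina1b: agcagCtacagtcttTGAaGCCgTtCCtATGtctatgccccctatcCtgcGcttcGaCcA
Serpina1c: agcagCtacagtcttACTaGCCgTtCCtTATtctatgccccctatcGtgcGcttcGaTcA
Serpina1d: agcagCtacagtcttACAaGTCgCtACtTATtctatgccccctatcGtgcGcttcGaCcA
Serpina1e: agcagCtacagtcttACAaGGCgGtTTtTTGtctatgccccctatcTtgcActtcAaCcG
They lie on the minus strand at chr12:103853757-103853816 (*Serpina1a*), chr12:103728324-103728383 (*Serpina1b*), chr12:103895094-103895153 (*Serpina1c*), chr12:103763762-103763821 (*Serpina1d*) and chr12:103947100-103947159 (*Serpina1e*). In this window 8 positions were particular to *Serpina1e*, against 2 or 3 for each other copy. The *Serpina3* genes are less alike: *Serpina3k* and *Serpina3m* were 92.0% identical over the coding sequence, *Serpina3m* and *Serpina3n* 85.2% and *Serpina3k* and *Serpina3n* 83.8%. *Serpina11* and *Serpina12* shared between 58.8% and 61.3% of aligned bases with any other of the 10 genes.

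How far reads can be assigned to one copy was measured as the share of 150-base windows of a gene's annotated transcripts that occur in no other gene. The shares were 40.3% for *Serpina1c*, 64.9% for *Serpina1a*, 76.7% for *Serpina1d*, 88.1% for *Serpina1b* and 92.6% for *Serpina1e*. *Serpina1c* shared most with *Serpina1a*, in 50.5% of its windows. By contrast *Serpina3k* and *Serpina3m* were at 99.7% each and *Serpina3n* and *Serpina12* at 100%. *Serpina11* reached 70.1%, since 40.8% of its exonic bases are shared with the overlapping gene model *Gm28577*. Of the exonic bases of *Serpina1c*, 31.5% lie under the antisense gene *B430119L08Rik*. How reads that fit several genes were handled, and whether strand was used in counting, is not given in the sources used here, so counts of single *Serpina1* copies, of *Serpina1a* and *Serpina1c* above all, are uncertain. The *Serpina1* copies were therefore also summed before testing, as were *Serpina3k*, *Serpina3m* and *Serpina3n*.

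**Figure D1:**
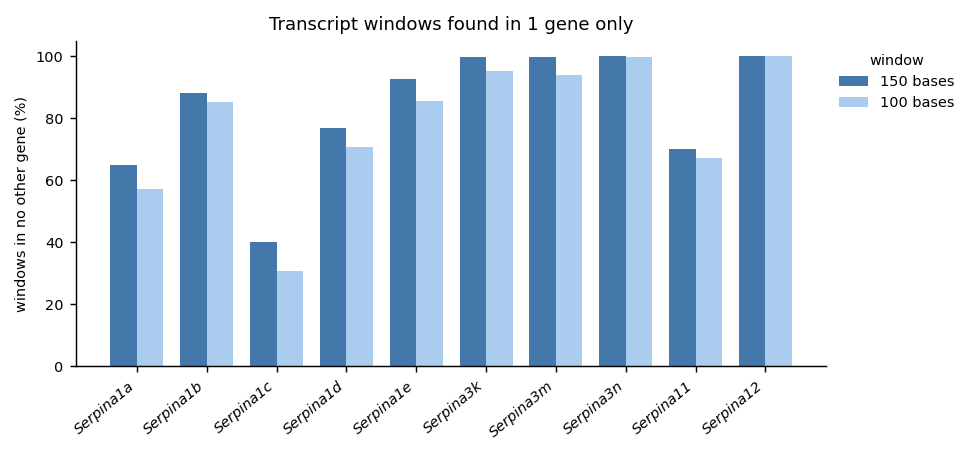
Share of transcript windows (y axis, percent) found in no other annotated gene, for each of the 10 serpin A genes (x axis), with windows of 150 bases in dark and 100 bases in light blue. *Serpina1c* is lowest at 40.3% and *Serpina1e* highest of the *Serpina1* copies at 92.6%.

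Each library held between 14604854 and 22537498 counts (median 19056997). Expression is given as CPM, the count scaled to library size and TMM factor, with factors between 0.916 and 1.13. The 10 genes held 1.22% to 1.53% of all counts in Sham HFD, 2.07% to 2.67% in Sham Chow, 1.69% to 2.70% in RYGB Chow and 1.80% to 2.53% in RYGB HFD. The label liver was checked against hepatocyte markers: 5 of the 6 listed had a symbol in the table, and their summed level was 79447 to 99254 CPM in Sham Chow, 69661 to 118869 in RYGB Chow, 66827 to 79918 in Sham HFD and 93629 to 112895 in RYGB HFD. Of 6 stellate cell and fibroblast markers, 6 were higher in Sham HFD than in Sham Chow, with summed levels of 293 to 357 CPM against 136 to 220, and 3 were lower with surgery on HFD (191 to 289). Of all tested genes 10.9% were higher in Sham HFD than in Sham Chow, and 7.90% were lower with surgery on HFD. Of 6 Kupffer cell markers, 4 were higher in Sham HFD (221 to 297 CPM, against 93.0 to 241 in Sham Chow), and 0 passed between Sham HFD and RYGB HFD (198 to 345). Neutrophil markers summed to at most 4.72 CPM in any mouse, with *Ly6g* at 0 in all 20. Of 5 endothelial and 5 red cell markers, 0 were called in any contrast. Of 5 cholangiocyte markers 2 were tested, and *Spp1* alone was called, 0.74 higher on the log2 scale in Sham HFD than in Sham Chow. Of 6 exocrine pancreas and gut markers 2 were tested, and *Fabp2* alone was called. *Fabp2* was 1.25 higher in Sham HFD than in Sham Chow, and 0.75 below Sham HFD in RYGB HFD. The medians of the 2 tested markers were 0.39 and -0.17 there, so the other marker went the opposite way each time. Of 5 adipocyte markers, only *Cfd* passed the filter. It was 4.32 higher on the log2 scale in RYGB HFD than in RYGB Chow, at a low and very variable level (8.40 ± 10.1 against 0.410 ± 0.328 CPM). With library size as the only scaling, the median log2 fold change of all tested genes in Sham Chow vs. Sham HFD moved from -0.0047 to 0.12 and calls split into 2279 higher and 554 lower, against 1337 and 1319 with TMM. In Sham HFD vs. RYGB HFD the split became 542 higher and 1497 lower, against 1050 and 971. For the interaction it became 151 and 597, against 305 and 317. For these genes, single libraries of 2 groups stood apart. RYGB Chow replicate 3 had the highest TMM factor, 1.13, and the lowest *Serpina1a*, *Serpina1b*, *Serpina1c*, *Serpina1d*, *Serpina1e* and *Serpina3k* of its group, and Sham HFD replicate 1 the highest *Serpina1e*, *Serpina1c* and *Serpina3k* of its group. Tests whose call changed when either was left out are given with and without it.

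Per kilobase of annotated transcript, the scale on which genes can be compared, *Serpina3k* was the most abundant of the 10 genes in Sham Chow, at 4598 ± 742 RPKM (mean ± SD, n = 5 mice in every group). *Serpina1b* followed at 3004 ± 263 and *Serpina1e* at 2508 ± 750, whose spread reached both *Serpina1b* and the next gene, *Serpina1d*, at 1812 ± 145. Lower were *Serpina1a* at 1527 ± 137 and *Serpina1c* at 842 ± 155. *Serpina3m* and *Serpina3n* stood at 146 and 145 RPKM and could not be ordered. *Serpina11*, at 19.1 ± 3.43, and *Serpina12*, at 16.3 ± 3.76, were the lowest and differed by less than their spread. In Sham HFD the order was another one: *Serpina1b* led at 2509 ± 97.3 RPKM, *Serpina3k* was second at 1546 ± 410, and the mean of *Serpina1e*, 125 ± 114, lay below those of *Serpina3m* (219.9 ± 21.6) and *Serpina3n* (219 ± 17.6), within its own spread of them.

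**Figure D2:**
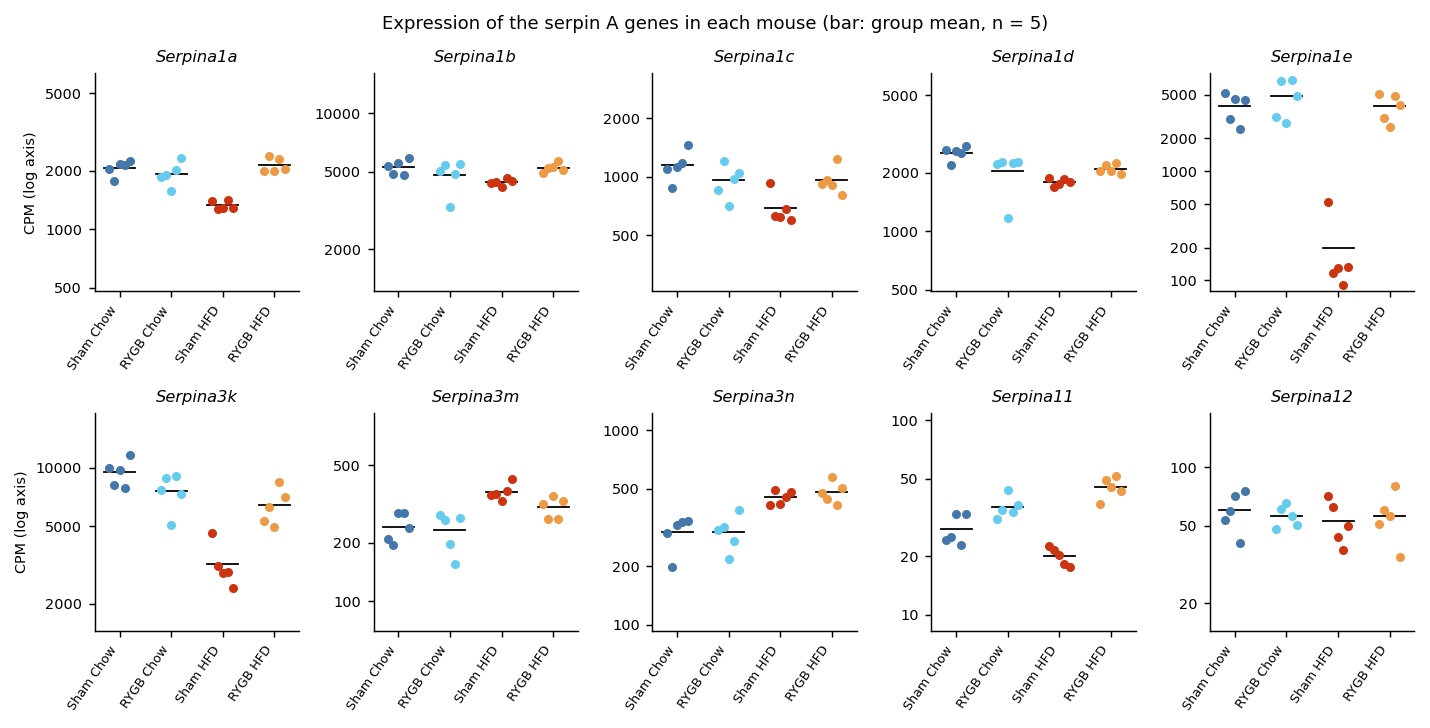
Expression of each serpin A gene (CPM, log axis) in the 4 groups, 1 point per mouse, with the group mean as a bar. *Serpina1e* in Sham HFD lies between 91.2 and 517 CPM, below every mouse of the other groups, while *Serpina12* overlaps between all groups.

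In Sham Chow vs. Sham HFD, 4 of the 5 alpha-1-antitrypsin genes, *Serpina3k* and *Serpina11* were lower in the mice kept on HFD, and *Serpina3m* and *Serpina3n* were higher. Of the 10 genes, 6 fell and 2 rose at an adjusted p under 0.05 (edgeR), where 10.7% of all tested genes fell, 10.9% rose and 21.6% were called in either direction. Their median log2 fold change was -0.48, against -0.0047 over all tested genes. For 8 of the 10 genes the 5 mice of one group lay beyond the 5 of the other, where 16.5% of all tested genes did so. In whole-liver RNA, fewer hepatocytes and less serpin RNA per hepatocyte cannot be told apart. Of 5 tested hepatocyte markers 3, *Cps1*, *Ass1* and *Apoa1*, were also lower in Sham HFD. *Alb* (70622 ± 6574 CPM in Sham Chow and 59965 ± 4389 in Sham HFD) and *Ttr* (5648 ± 424 and 5586 ± 227) were not called. Stellate cell markers and 4 of 6 Kupffer cell markers were higher, as given above. The part of these markers in these results was not tested.

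*Serpina1e* showed the widest difference of the 10. Sham Chow mice had 5233, 2981, 4613, 2443 and 4480 CPM of *Serpina1e*. In Sham HFD the values were 517, 116, 129, 91.2 and 133 CPM. Every Sham HFD mouse was far below every Sham Chow mouse, and 1 of the 5, replicate 1, stood above the other 4. *Serpina1e* fell by 4.32 on the log2 scale (standard error 0.45, adjusted p = 3.71e-06), a level 20.02-fold lower (exact permutation test, two-sided p = 0.00794, the smallest that 5 mice against 5 can give). Without Sham HFD replicate 1 the log2 fold change was -5.07.

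The other *Serpina1* copies moved far less. *Serpina1a* was at 2035, 1775, 2176, 2147 and 2252 CPM in Sham Chow and at 1406, 1278, 1290, 1421 and 1285 CPM in Sham HFD, 2 ranges that did not overlap (log2 fold change -0.64, standard error 0.09, adjusted p = 9.48e-05). *Serpina1c* fell by 0.72 on the log2 scale (standard error 0.15, adjusted p = 0.0026), from 1146 ± 211 to 695 ± 136 CPM, and the groups overlapped through Sham HFD replicate 1 at 932 CPM. *Serpina1d* fell by 0.50 (standard error 0.13, adjusted p = 0.00949), from 2525 ± 202 to 1790 ± 73.1 CPM. *Serpina1b*, the copy with the highest mean CPM in both groups, went from 5293 ± 463 to 4420 ± 172 CPM. It was not called (log2 fold change -0.26, standard error 0.11, adjusted p = 0.083). All 5 Sham HFD mice nevertheless lay below all 5 Sham Chow mice for *Serpina1b* (4169 to 4633 against 4819 to 5916 CPM), and without RYGB Chow replicate 3, which enters through the shared estimate of spread, its adjusted p was 0.00922.

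Because reads can be exchanged between copies, the sum of the 5 was examined next. The *Serpina1* sum fell from 14992 ± 1941 CPM in Sham Chow to 8438 ± 450 CPM in Sham HFD (log2 fold change -0.83, standard error 0.13, adjusted p = 2.23e-04). *Serpina1e* accounted for 57.3% of the difference in mean CPM of the sum, *Serpina1b* for 13.3%, *Serpina1a* for 11.3%, *Serpina1d* for 11.2% and *Serpina1c* for 6.89%. Without *Serpina1e*, the other copies summed to between 9706 and 12360 CPM in Sham Chow and between 7828 and 8590 CPM in Sham HFD, which did not overlap. The share of *Serpina1e* in the *Serpina1* sum was 32.1%, 23.5%, 28.8%, 18.6% and 26.6% in the Sham Chow mice and 5.69%, 1.42%, 1.62%, 1.05% and 1.60% in the Sham HFD mice. *Serpina1b* made up 32.7% to 38.3% of the sum in Sham Chow and 48.0% to 54.4% in Sham HFD. The shares are descriptions and were not tested. If reads that fit several copies were left out in counting, they are missing from the sum too. The parts of single copies in the sum, here and below, would then lean to copies with more unique sequence.

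**Figure D3:**
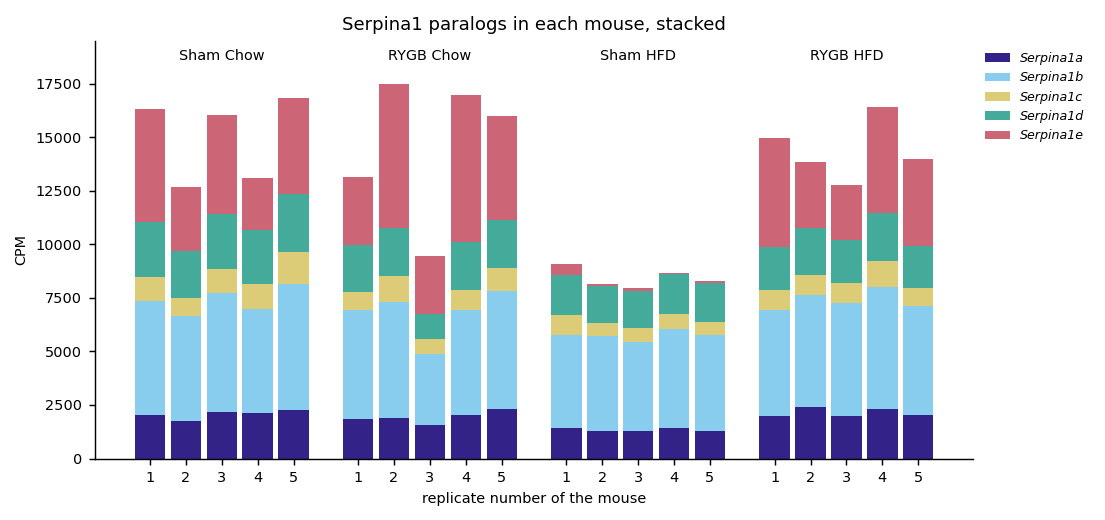
CPM of the 5 *Serpina1* copies stacked for each of the 20 mice (x axis, replicate number within each group). The *Serpina1* sum is between 7957 and 9088 CPM in Sham HFD, where the *Serpina1e* block is nearly absent except in replicate 1, and RYGB Chow replicate 3 is the lowest of its group at 9468 CPM.

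Among the *Serpina3* genes the direction differed from gene to gene. *Serpina3k* was at 9947, 8158, 9706, 7842 and 11632 CPM in Sham Chow and at 4615, 3102, 2871, 2917 and 2394 CPM in Sham HFD. The 2 ranges did not overlap, and *Serpina3k* fell by 1.57 on the log2 scale (standard error 0.18, adjusted p = 1.10e-05). *Serpina3m*, its closest relative in sequence, was at 209, 195, 283, 284 and 237 CPM in Sham Chow and at 350, 357, 326, 368 and 423 CPM in Sham HFD. *Serpina3m* rose by 0.59 (standard error 0.14, adjusted p = 0.00584), opposite to *Serpina3k*, although both models begin at the same position. *Serpina3n* was at 296, 199, 325, 337 and 343 CPM in Sham Chow and at 415, 494, 420, 452 and 484 CPM in Sham HFD, again without overlap (log2 fold change 0.59, standard error 0.14, adjusted p = 0.00594). Since *Serpina3k* outweighed the other 2, the *Serpina3* sum fell with it, from 9999 ± 1553 to 3998 ± 808 CPM (log2 fold change -1.32, standard error 0.16, adjusted p = 1.59e-05).

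*Serpina11* was expressed at a low level, between 22.8 and 33.1 CPM in Sham Chow and between 17.6 and 22.5 CPM in Sham HFD. The groups did not overlap and the gene fell by 0.47 on the log2 scale (standard error 0.12, adjusted p = 0.00924). With library size as the only scaling its adjusted p was 0.0711. *Serpina12* (vaspin) was between 41.0 and 75.4 CPM in Sham Chow and between 37.7 and 70.8 CPM in Sham HFD, and no difference was detectable (log2 fold change -0.18, standard error 0.20, adjusted p = 0.53).

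**Figure D4:**
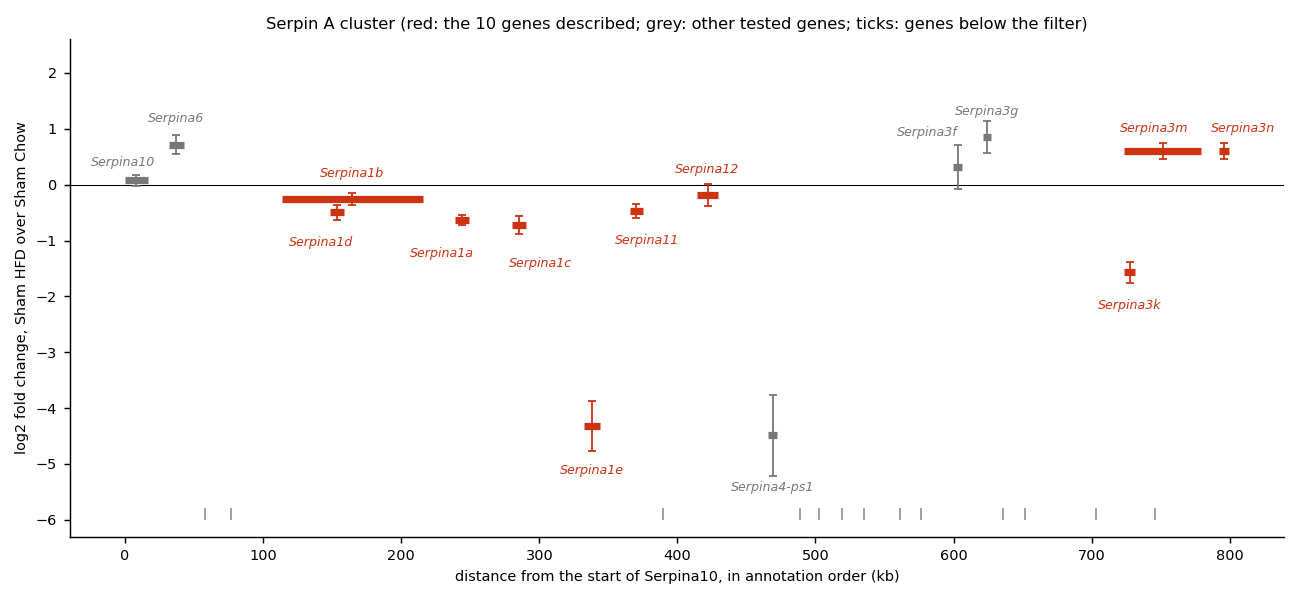
Log2 fold change of Sham HFD over Sham Chow (y axis, with standard error) along the serpin A cluster (x axis, distance in kb from the start of *Serpina10*), where each bar spans a gene. The 10 serpin A genes described are red, other tested genes of the cluster grey, and the 13 genes below the filter are ticks; *Serpina1e* at -4.32 has neighbours *Serpina1c* at -0.72 and *Serpina11* at -0.47.

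In Sham HFD vs. RYGB HFD, surgery on the same diet went with higher levels of 3 of the 5 alpha-1-antitrypsin genes, of *Serpina3k* and of *Serpina11*. Of the 10 genes, 5 rose and 0 fell, where 8.54% of all tested genes rose, 7.90% fell and 16.4% were called in either direction. Their median log2 fold change was 0.36, against 0.0095 over all tested genes. For 6 genes all RYGB HFD mice lay above all Sham HFD mice, where 7.25% of all tested genes did so and 14.7% had no overlap in either direction. This contrast and Sham Chow vs. Sham HFD share the 5 Sham HFD mice, so opposite signs in the 2 contrasts are not independent of each other. Of the hepatocyte markers, *Apoa1*, *Cps1* and *Alb* rose here by 0.88, 0.86 and 0.48 on the log2 scale and *Ttr* fell by 0.45, and their part in these results was not tested.

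*Serpina1e* in RYGB HFD was at 5096, 3063, 2561, 4921 and 4056 CPM, each of them above the highest Sham HFD mouse at 517 CPM and within the range of Sham Chow given above. Its log2 fold change was 4.32 (standard error 0.45, adjusted p = 3.19e-06), and 5.06 without Sham HFD replicate 1. *Serpina1e* held 34.0%, 22.2%, 20.1%, 30.02% and 29.0% of the *Serpina1* sum in these mice. It accounted for 62.9% of the difference in mean CPM of the sum, which rose from 8438 ± 450 to 14385 ± 1366 CPM (log2 fold change 0.76, standard error 0.13, adjusted p = 4.98e-04).

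*Serpina1a* rose to 2007, 2384, 1999, 2293 and 2041 CPM (log2 fold change 0.68, standard error 0.09, adjusted p = 4.85e-05), with no overlap with Sham HFD. *Serpina1c* was at 968 ± 162 CPM and its groups overlapped (log2 fold change 0.48, standard error 0.15, adjusted p = 0.0375). That call depended on single mice: with each mouse left out in turn its adjusted p ran from 0.00976, without Sham HFD replicate 1, to 0.118, without RYGB HFD replicate 4, and was above the threshold without any of Sham HFD replicates 2 to 5 or RYGB HFD replicate 2 as well. It was 0.0608 with library size as the only scaling. For *Serpina1b* (4922 to 5692 CPM) and *Serpina1d* (1965 to 2245 CPM) all RYGB HFD mice lay above all Sham HFD mice, yet neither was called. Their log2 fold changes were 0.25 (standard error 0.11, adjusted p = 0.12) and 0.22 (standard error 0.13, adjusted p = 0.25). Without RYGB Chow replicate 3 their adjusted p was 0.0166 and 0.0204.

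*Serpina3k* was at 5315, 6292, 4963, 8391 and 7023 CPM in RYGB HFD, above all Sham HFD mice, of which replicate 1 came closest at 4615. It rose 2.01-fold (log2 fold change 1.01, standard error 0.18, adjusted p = 7.28e-04). *Serpina11* rose 2.27-fold, to 36.9, 49.4, 45.2, 51.5 and 43.5 CPM (log2 fold change 1.18, standard error 0.12, adjusted p = 3.16e-06). Those values lay above all Sham HFD mice and also above all Sham Chow mice, whose highest was 33.1 CPM. *Serpina3m* (305 ± 38.2 against 365 ± 35.8 CPM in Sham HFD) was not called at -0.26 on the log2 scale (standard error 0.14, adjusted p = 0.23). *Serpina3n* stayed between 414 and 578 CPM in RYGB HFD (log2 fold change 0.09, standard error 0.14, adjusted p = 0.71). *Serpina12* ran from 34.6 to 80.1 CPM (log2 fold change 0.09, standard error 0.20, adjusted p = 0.78).

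**Figure D5:**
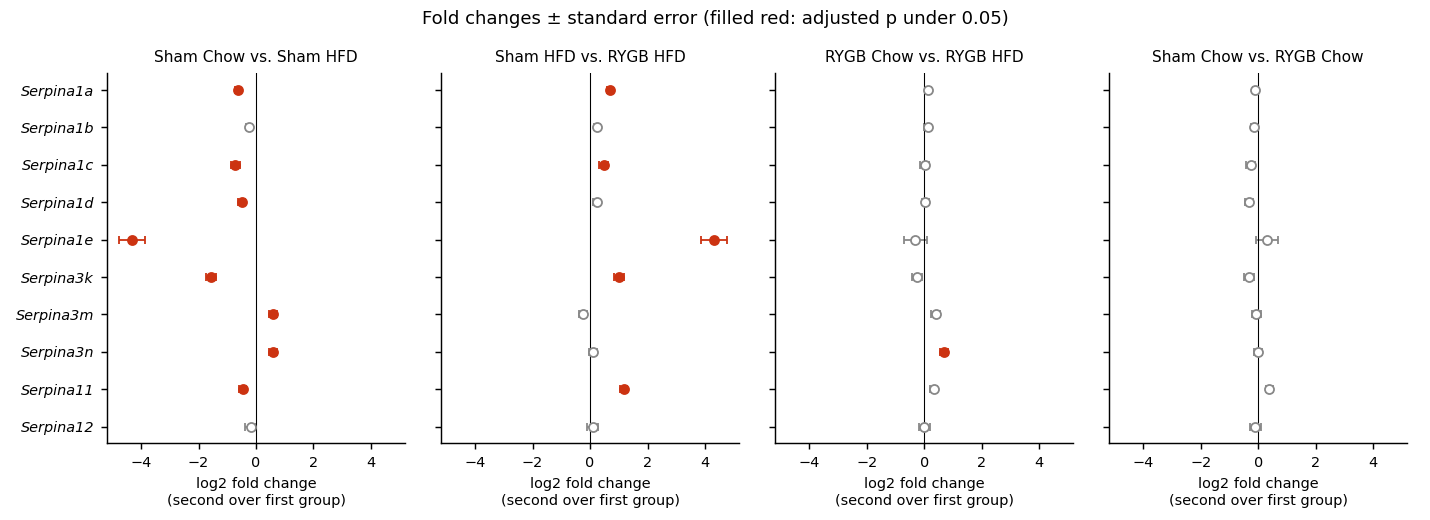
Log2 fold change (x axis) with standard error of each serpin A gene (y axis) in the 4 contrasts, filled red where the adjusted p was under 0.05. The 2 panels with Sham HFD hold 8 and 5 called genes, RYGB Chow vs. RYGB HFD holds 1, *Serpina3n* at 0.69, and Sham Chow vs. RYGB Chow holds 0.

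In RYGB Chow vs. RYGB HFD, the effect of diet after bypass, *Serpina3n* was the single gene of the 10 that was called, where 1.99% of all tested genes rose and 3.65% were called in either direction. *Serpina3n* was at 307, 318, 218, 271 and 388 CPM in RYGB Chow and at 476, 443, 578, 414 and 505 CPM in RYGB HFD, with no overlap. Its log2 fold change was 0.69 (standard error 0.14, adjusted p = 0.0108), beside 0.59 for the same diet after sham surgery. Of the 10 genes it alone had groups that did not overlap, where 5.05% of all tested genes did, and 2.64% in that direction. Without RYGB Chow replicate 3 the log2 fold change was 0.59, with an adjusted p of 0.0225. *Serpina1e* was at 3144, 6740, 2736, 6869 and 4847 CPM in RYGB Chow and overlapped widely with RYGB HFD (log2 fold change -0.31, standard error 0.39, adjusted p = 0.74). *Serpina3k* was at 7597 ± 1618 CPM in RYGB Chow and 6397 ± 1379 in RYGB HFD (log2 fold change -0.25, standard error 0.18, adjusted p = 0.50). *Serpina3m* and *Serpina11* were 0.40 and 0.33 higher on the log2 scale (adjusted p = 0.13 for each) and were not called. *Serpina1a*, *Serpina1b*, *Serpina1d*, *Serpina1c* and *Serpina12* were at 0.15, 0.12, 0.047, 0.015 and 0.0032, with adjusted p between 0.42 and 0.995. The *Serpina1* sum was at 14613 ± 3336 and 14385 ± 1366 CPM, a log2 fold change of -0.03 with a standard error of 0.13.

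In Sham Chow vs. RYGB Chow, the effect of surgery on chow, 0 of the 10 genes were called, where 0.057% of all tested genes were, and 0 had groups that did not overlap, where 1.33% did. At an unadjusted p under 0.05 edgeR gave 2 of the 10 genes, *Serpina11* and *Serpina1d*, where 10.8% of all tested genes passed. Under DESeq2 and limma-voom 0 were called as well. *Serpina11* was 0.38 higher (standard error 0.12, edgeR unadjusted p = 0.0047, adjusted p = 0.26), at 27.7 ± 4.97 CPM in Sham Chow and 36.0 ± 4.88 in RYGB Chow. The study, which used an unadjusted p under 0.05, counted *Serpina11* among the genes that RYGB changed on both diets. *Serpina1d* was 0.32 lower (standard error 0.13, adjusted p = 0.36), and 0.17 lower without RYGB Chow replicate 3, which had 1162 CPM against 2208 to 2274 in the other 4 mice of its group. *Serpina1e*, at 3950 ± 1181 and 4867 ± 1938 CPM, differed by less than its spread (log2 fold change 0.30, standard error 0.39, adjusted p = 0.83). The other 7 genes lay between -0.32 for *Serpina3k* and 0.00099 for *Serpina3n*, with *Serpina1c* at -0.26, *Serpina1b* at -0.13, *Serpina1a* at -0.10, *Serpina12* at -0.094 and *Serpina3m* at -0.061, and adjusted p between 0.55 and 0.999.

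Whether surgery acted differently on the 2 diets was tested as an interaction, the change with surgery on HFD less that on chow. Of the 10 genes, 4 were called and all 4 were positive, where 2.48% of all tested genes were positive and called and 5.06% were called in either direction. The interaction was 4.02 for *Serpina1e* (standard error 0.57, adjusted p = 4.94e-04), 1.32 for *Serpina3k* (standard error 0.26, adjusted p = 0.00594), 0.80 for *Serpina11* (standard error 0.17, adjusted p = 0.00941) and 0.79 for *Serpina1a* (standard error 0.13, adjusted p = 0.00201). Without Sham HFD replicate 1 the interaction of *Serpina1e* was 4.76. *Serpina1c*, at 0.74, was not called (standard error 0.22, adjusted p = 0.0538). Without Sham Chow replicate 2, RYGB Chow replicate 2, Sham HFD replicate 1 or RYGB HFD replicate 5 its adjusted p was between 0.021 and 0.0479, and it was 0.0163 with DESeq2 and 0.0482 with limma-voom. *Serpina1d* was at 0.54 (standard error 0.18, adjusted p = 0.088), and at 0.39 with an adjusted p of 0.0188 without RYGB Chow replicate 3. DESeq2 gave *Serpina1d* an adjusted p of 0.0462. *Serpina1b* was at 0.38 (adjusted p = 0.15), *Serpina12* at 0.19 (adjusted p = 0.75), *Serpina3n* at 0.09 (adjusted p = 0.84) and *Serpina3m* at -0.20 (adjusted p = 0.62). For the sums, the interaction was 0.80 for *Serpina1* (standard error 0.19, adjusted p = 0.0169) and 1.14 for *Serpina3* (standard error 0.23, adjusted p = 0.00722).

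Promoters were then compared, to show how much sequence next to the start separates copies with such unequal fold changes. RefSeq promoter windows of GRCm38.p6, 250 bases before to 50 after the start, were found for 8 of the 10 genes. *Serpina1b* and *Serpina1e* had log2 fold changes of -0.26 and -4.32 in Sham Chow vs. Sham HFD. Over the part that aligned locally, their windows had the highest identity of the *Serpina1* pairs. They differed at 4 bases of 248 aligned (98.4% identity), gaps not counted. The other *Serpina1* pairs were between 91.7% and 96.6%. Pairs with *Serpina1e* aligned over 233 to 249 bases and pairs without it over 288 to 298, so these identities cover unlike lengths. Bases outside the aligned parts were not compared. The aligned parts of *Serpina1b* and *Serpina1e* are offset from the start: the TTGCTTAA marked in both begins at -161 in *Serpina1b* and at -211 in *Serpina1e*. The windows of these 2 genes, chr12:103738140-103738439 and chr12:103956848-103957147 on the minus strand, are shown with motif matches in capitals. They follow the RefSeq starts, which lie inside the longer gene models given above.
Serpina1b: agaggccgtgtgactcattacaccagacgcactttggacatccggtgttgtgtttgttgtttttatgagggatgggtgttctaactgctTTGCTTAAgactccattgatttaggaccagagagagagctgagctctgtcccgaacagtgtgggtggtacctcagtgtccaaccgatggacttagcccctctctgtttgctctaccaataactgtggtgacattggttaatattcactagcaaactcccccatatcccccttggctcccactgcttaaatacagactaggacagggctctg
Serpina1e: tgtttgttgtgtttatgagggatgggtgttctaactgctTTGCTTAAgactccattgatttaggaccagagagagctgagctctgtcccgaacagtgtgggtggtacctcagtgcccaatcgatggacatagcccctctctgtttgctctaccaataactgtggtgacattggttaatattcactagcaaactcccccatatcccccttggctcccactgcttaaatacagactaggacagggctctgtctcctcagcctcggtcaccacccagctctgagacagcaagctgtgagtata
The letters searched on both strands were CAAAGNNCA for HNF4, TTNNGNAA for C/EBP and TTCNNNGAA for STAT factors. TTNNGNAA was in 4 of the 5 *Serpina1* windows, *Serpina1c* being without it, and in those of *Serpina3n* and *Serpina12*, against 40.7% of 32851 promoters in all. The *Serpina1* matches are not all at the same site. Relative to the start they begin at -161 in *Serpina1b*, -149 in *Serpina1d* and -211 in *Serpina1e*, but at 24, past the start, in *Serpina1a*. TTCNNNGAA was in the window of *Serpina11*, as TTCCAGGAA, and in 8.30% of all promoters, and CAAAGNNCA in none of the 8 and in 6.36%. A match describes letters and shows no binding.

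Outside the 10, 6 serpin A genes were above the filter. The counts below stand beside shares of all tested genes. In Sham Chow vs. Sham HFD 10.9% rose and 10.7% fell, and with surgery on HFD 8.54% rose and 7.90% fell. The pseudogene *Serpina4-ps1*, which was not on the list of 15 other serpin A genes and was chosen after its values were seen, was lower in Sham HFD than in Sham Chow, with a log2 fold change of -4.49 (adjusted p = 2.37e-04) and rose by 2.44 with surgery on HFD (adjusted p = 0.0193). The list of 15 had the other 5. In Sham Chow vs. Sham HFD 2 of these 5 rose and 0 fell: *Serpina6*, which encodes the corticosteroid-binding globulin, went from 232 ± 44.3 to 380 ± 56.1 CPM (log2 fold change 0.71, standard error 0.17, adjusted p = 0.00615), and *Serpina3g* rose by 0.85 (standard error 0.29, adjusted p = 0.0372). With surgery on HFD 0 of these 5 were called, with 1 (*Serpina10*) at an unadjusted p under 0.05 (edgeR), as were 3772 of the 12289 tested genes. In RYGB Chow vs. RYGB HFD *Serpina10*, the inhibitor that acts with protein Z on factor Xa, rose by 0.51 (standard error 0.10, adjusted p = 0.00702). Of 14 liver serpins of other clades, 13 were tested. In Sham Chow vs. Sham HFD 3 rose and 3 fell, among them *Serpinb8* at 1.52 and *Serpine2* at -1.34 on the log2 scale. With surgery on HFD 5 rose and 2 fell, led by *Serpinb1a* at -1.15, *Serpine2* at 1.10 and *Serpinh1*, the collagen chaperone HSP47, at -0.78.

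Factors and partners of the serpins were counted from fixed lists. For comparison, 10.9% of all tested genes rose and 10.7% fell in Sham Chow vs. Sham HFD, 21.6% in either direction. With surgery on HFD 8.54% rose and 7.90% fell, 16.4% in either direction. Of 12 hepatocyte transcription factors, 3 fell and 0 rose in Sham Chow vs. Sham HFD: *Foxa3* (log2 fold change -0.56), *Hnf4a* (-0.43) and *Cebpa* (-0.30). With surgery on HFD 2 rose, among them *Hnf4a* at 0.49. In the growth hormone axis, 3 of 10 fell and 1 rose in Sham Chow vs. Sham HFD, with *Socs2*, a STAT5 target, at -1.92, *Stat5a* at 0.60 and *Igf1* at -0.58. Surgery on HFD gave 3 that rose, *Socs2* at 1.504, *Igfals* at 0.45 and *Igf1* at 0.44.

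Among 24 acute-phase and STAT3 genes, 7 rose and 5 fell in Sham Chow vs. Sham HFD, led by *Lcn2* at 3.43, *Saa2* at 2.64 and *Orm3* at 2.32. Of all tested genes 10.9% rose and 10.7% fell in that contrast, and 8.54% rose and 7.90% fell with surgery on HFD. With surgery on HFD 11 rose and 2 fell, led by *Orm3* at -1.88, *Saa2* at -1.37 and *Itih3* at 1.10. In RYGB Chow vs. RYGB HFD 8 rose, where 1.99% of all tested genes did, led by *Itih3* at 0.89, *Itih4* at 0.56 and *Saa4* at 0.55. Of 20 genes for the folding, export and degradation of secretory proteins such as alpha-1-antitrypsin, 1 was called in each of the contrasts with Sham HFD, the mannosidase gene *Man1b1*, at 0.33 in Sham Chow vs. Sham HFD and -0.36 in Sham HFD vs. RYGB HFD. The list of proteases and partners had 5 of 12 above the filter, with *Ctsg* and *Klk7* at 0 counts in all mice. With surgery on HFD 4 of the 5 rose, led by *Prtn3* (proteinase 3) at 4.51, *F11* at 1.27 and *Klkb1* (plasma kallikrein) at 0.49. *Prtn3* was at 4.58 ± 4.24 CPM in RYGB HFD and 0.191 ± 0.263 in Sham HFD. It passed the filter through the RYGB HFD mice alone, so its call rests on the group in which it is high. In Sham Chow vs. Sham HFD *Klkb1* and *Proc* (protein C) fell by 0.32 and 0.26. Surgery on chow gave 0 calls among the genes of these 7 lists, where 0.057% of all tested genes were called.

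Across the 20 mice, the tested genes outside the 10 whose log2 CPM was most like that of *Serpina1e* were *Hsd3b5* (Pearson r = 0.98) and *C8b* (0.98). For *Serpina3k* they were *Cyp4a12b* (0.96), *Paics* (0.95) and *Cyp7b1* (0.93), for *Serpina1a* *Ccnl2* (0.94), *F10* (0.93) and *Fetub* (0.93), and for *Serpina11* *Mat2a* (0.91), *C8a* (0.90) and *B930025P03Rik* (0.88). These correlations include the differences between the groups. After subtraction of the group means, r was 0.85 between *Serpina1e* and *Hsd3b5*, 0.82 between *Serpina3k* and *Cyp4a12b*, 0.77 between *Serpina1a* and *Ccnl2* and 0.49 between *Serpina11* and *Mat2a*. For *Serpina12* the closest gene, *Ercc8*, reached 0.72. Among the 10 genes themselves, *Serpina1b* and *Serpina1d* were the most alike after subtraction of group means (r = 0.93). RYGB Chow replicate 3 lay far below the rest of its group for both genes, and how much of this r rests on that mouse was not tested. *Serpina1e* reached 0.76 with *Serpina3k* and between 0.33 and 0.65 with the other *Serpina1* copies. *Serpina3k* and *Serpina3m* had r = -0.20 and *Serpina3m* and *Serpina3n* r = 0.71. The *Serpina1* copies share reads, so part of their likeness can come from the counting.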

How the data were processed

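Poly-A RNA was enriched. After trimming (Trimmomatic 0.36) and alignment to mm10 (HISAT2 2.1.0), the authors deposited raw counts per gene from featureCounts 1.5.0-p3, without normalization. GENCODE M21 supplied the gene models, and a symbol for 54495 of 54532 genes. Genes that reached a CPM of 2 in 3 or more mice entered edgeR 4.0.16 (R 4.3.3): a quasi-likelihood test on TMM-scaled counts, 1 model of 4 groups and 20 mice, two-sided, with Benjamini-Hochberg adjustment over all 12289 tested genes and a threshold of 0.05. The standard errors given were derived from that test, as the absolute log2 fold change divided by the square root of its F statistic. The biological coefficient of variation was 0.181. For single genes, log2 of CPM + 0.5 was compared in an exact permutation test, which enumerates the 252 ways to split 10 mice into 5 and 5. RPKM values divide CPM by the length of 1 annotated transcript. The 5 *Serpina1* coding sequences were aligned together with MAFFT 7.526. Pairwise identities came from Biopython 1.88, with global alignment for coding sequences and local alignment for promoters, over aligned bases without gaps. Window shares counted exact matches on either strand. Per the labels, the mice are separate samples of a group, and no sequencing batch is named, which leaves no within-batch value to give. Counts carry no molecular identifiers.

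Alternatives were DESeq2 1.42.0, limma-voom (limma 3.58.1), DESeq2 size factors in edgeR, library size only, no filter, a CPM of at least 5, only the 2 groups of a contrast, the replicate number as a block, leaving out each mouse, a pseudocount of 2 and windows of 100 bases. All 10 genes are given in each contrast and in the interaction. Of the other lists up to 3 called genes with the largest absolute log2 fold change are named, and for some of the 10 genes the 3 most correlated genes. The 10 genes, the lists and the tests were chosen with earlier results of these data known, so they give no independent support to patterns seen before. Protein sequences and the promoters of *Serpina3k* and *Serpina3m* were not used here, and a few listed genes and a motif are not reported here.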

Additional observations from a re-analysis of the deposited data

Results flagged for a closer look

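In groups of 5 mice, a mouse was looked at again when its gap to the nearest other mouse exceeded 0.71 of the group's range, which chance gives in about 1 of 20 groups. Of 40 groups, 10 genes in 4 groups each, 4 had such a mouse. Sham HFD replicate 1 had 517 CPM of *Serpina1e*, against 91.2 to 133 in the other 4 mice, and 932 CPM of *Serpina1c*, against 602 to 685. RYGB Chow replicate 3 had 3290 CPM of *Serpina1b*, against 4891 to 5491 in the others, and 1162 CPM of *Serpina1d*, against 2208 to 2274. What sets these mice apart was not tested.

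The change with surgery differed between the diets, by the test of the interaction, for *Serpina1e* (4.02 on the log2 scale, 4.76 without Sham HFD replicate 1), *Serpina3k* (1.32), *Serpina11* (0.80) and *Serpina1a* (0.79). With each mouse left out in turn the adjusted p of these 4 stayed at or below 0.00188, 0.0146, 0.0228 and 0.00539.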

How the results depend on the processing

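Over the 4 contrasts and the interaction, the log2 fold changes of the 10 genes kept their direction and their side of the threshold in 371 of 390 values under other tools, scalings, filters and models, and in 963 of 1000 with 1 mouse left out. Using only the 2 groups, *Serpina1b* gained a call in Sham Chow vs. Sham HFD (adjusted p = 0.0249) and with surgery on HFD (0.0138), as did *Serpina1d* with surgery on HFD (0.0231). Sign changes concerned genes near 0 that were called under no setting. For *Serpina3n* in Sham Chow vs. RYGB Chow the value was -0.0027 with DESeq2 and with its size factors, -0.0022 without a filter and -0.0033 with only the 2 groups. With library size only its surgery effect on HFD was -0.0028 and its interaction -0.0403. For *Serpina12* in RYGB Chow vs. RYGB HFD it was -0.036 with limma-voom, -0.018 with library size only, -0.0105 without a filter and -0.00074 with only the 2 groups. For the *Serpina1* sum in RYGB Chow vs. RYGB HFD limma-voom gave 0.0039. With 1 mouse left out, values in Sham Chow vs. RYGB Chow ran from -0.14 to 0.053 for *Serpina3m*, from -0.12 to 0.097 for *Serpina3n* and from -0.11 to 0.085 for the *Serpina1* sum. In RYGB Chow vs. RYGB HFD they ran from -0.090 to 0.11 for *Serpina1c*, from -0.10 to 0.087 for *Serpina1d*, from -0.16 to 0.14 for *Serpina12* and from -0.14 to 0.048 for the *Serpina1* sum. *Serpina12* ran from -0.065 to 0.23 with surgery on HFD, and the interaction of *Serpina3n* from -0.012 to 0.21.

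Windows of 100 bases gave unique shares of 57.2% for *Serpina1a*, 85.2% for *Serpina1b*, 30.7% for *Serpina1c*, 70.7% for *Serpina1d*, 85.6% for *Serpina1e*, 95.2% for *Serpina3k*, 93.9% for *Serpina3m*, 99.8% for *Serpina3n* and 67.2% for *Serpina11*. A pseudocount of 2 changed no count of genes under the permutation test's threshold. Over all genes, DESeq2 called 92 in Sham Chow vs. RYGB Chow, against 7, limma-voom 3, no filter 13 and only the 2 groups 0. With 1 mouse left out the first count ran from 0 to 15. In RYGB Chow vs. RYGB HFD DESeq2 called 751 and only the 2 groups 184, against 448, and with 1 mouse left out between 253 (without RYGB HFD replicate 3) and 483. The interaction gave between 386 (without Sham HFD replicate 3) and 802, against 622.

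After subtraction of group means, same-numbered mice of different groups had correlations between -0.26 and 0.16 (median -0.011). Mice with different numbers had -0.24 to 0.35 (median 0.0012). No pairing by number was visible, but the labels do not say what a number shares. With the replicate number as a block, *Serpina1c* in Sham HFD vs. RYGB HFD had an adjusted p of 0.0535 at a log2 fold change of 0.48, no other call changed for the 10 genes, and 1905 genes were called there, against 2021.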

Other observations

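Among serpin A genes outside the 10, the following were chosen after their values were seen. The pseudogene *Serpina4-ps1*, in the same cluster, was at 98.96 ± 55.1 CPM in Sham Chow (35.6 to 158), 51.1 ± 33.2 in RYGB Chow (11.2 to 90.5), 4.53 ± 6.09 in Sham HFD (0.419 to 15.2) and 23.9 ± 13.2 in RYGB HFD (9.97 to 43.9). HFD after sham surgery gave a log2 fold change of -4.49 (edgeR, standard error 0.73, adjusted p = 2.37e-04), and bypass on HFD one of 2.44 (standard error 0.70, adjusted p = 0.0193). *Serpina1e* had -4.32 and 4.32 there. *Serpina9* was below the filter and was not tested, with at most 45 counts in a mouse. Its levels were 0.286 to 2.17 CPM in Sham Chow, 0.218 to 1.72 in RYGB Chow, 0 to 0.522 in Sham HFD and 1.04 to 1.66 in RYGB HFD, so that Sham HFD and RYGB HFD did not overlap. *Serpina7*, the thyroxine-binding globulin gene, which is not in this cluster, varied most among the Sham Chow mice, from 25.8 to 239 CPM, and was called in 0 contrasts, with adjusted p between 0.49 and 0.98.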
